A study of Mus musculus with 4 samples.

Results

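Fgfr2-high fibroblasts (FB) of the small intestine were chosen cell by cell from unique molecular identifier (UMI) counts. A cell was taken when at least 3 of 7 genes (*Fgfr2*, *Mmp10*, *Igfbp3*, *Cxcl14*, *Lpl*, *Agt* and *Sertm1*, the inclusion genes) had a UMI and at most 1 of 4 genes of another FB type (*Sox6*, *F3*, *Foxl1* and *Bmp7*, the exclusion genes) had one. The cells were thus selected on the measured UMIs of these 11 genes. The rule took 2763 of 17097 small intestinal cells that passed the quality filter (500 or more genes, 1000 or more UMIs, mitochondrial share no higher than 10%), and 32216 cells passed it in the whole series. These were 250 of 1834 cells in replicate 1 and 2513 of 15263 cells in replicate 2.

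The cells came from the lamina propria of untreated female C57BL6/Nrj mice of 8 to 10 weeks, in 2 independent experiments of 3 pooled mice each. Peyer's patches, muscle layer and epithelium had been removed, and live cells were sorted that carried integrin β1 and lacked CD45, Ter119, CD31, BP3, EpCAM and L1CAM. Small intestine and colon each gave 2 droplet libraries (replicates 1 and 2), made with a 3′ or 5′ kit that is not assigned to single libraries in the sources used here. With 2 libraries of pooled mice per intestine, errors describe the spread between libraries and not between animals.

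FB of the intestinal lamina propria lay down the matrix under the epithelium and send it growth factors of the WNT, BMP and FGF families. FGFR2 is a receptor tyrosine kinase for FGFs. Intestinal FB are commonly divided into PDGFRαhi FB beneath the epithelium, CD81+ FB that make the BMP antagonist Gremlin 1 near the crypt base and submucosa, and intermediate cells with low PDGFRα, to which the cells with high *Fgfr2* belong.

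Libraries held 2061 and 16795 barcodes in small intestine and 2590 and 13537 in colon, for replicates 1 and 2. Total depth ranged from 14341443 to 52269372 UMIs. Cells of replicate 1 were the deeper ones. In small intestine, Fgfr2-high cells had a median of 8549 UMIs in replicate 1 and 2886 in replicate 2, beside 8003 and 2778 in the other cells with a *Col1a2* UMI (1097 and 12665 cells), which are the comparison cells below. The 2 small intestinal libraries shared 2 barcodes, and those of small intestine and colon shared 8 in replicate 1 and 69 in replicate 2. The latter were 0.510% of the colonic barcodes, the largest overlap of any pair.

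Of cells that were Fgfr2-high or carried a *Col1a2* UMI, Fgfr2-high cells made up 18.6% in replicate 1 (95% exact Clopper-Pearson interval 16.5 to 20.7) and 16.6% in replicate 2 (16 to 17.2). The mean was 17.6% ± 1.42 (SD, n = 2). The intervals cover counting error only. The share follows the threshold, and with at least 4 inclusion genes it was 9.81%. It also follows depth, since thinning each cell to 2000 UMIs gave 9.26% in replicate 1 and 12.4% in replicate 2. The order of the libraries turned with it, and no difference between them is read from these shares. The same rule took 21.9% of colonic cells in replicate 1 and 13.2% in replicate 2, a range that contains both small intestinal shares.

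**Figure D1:**
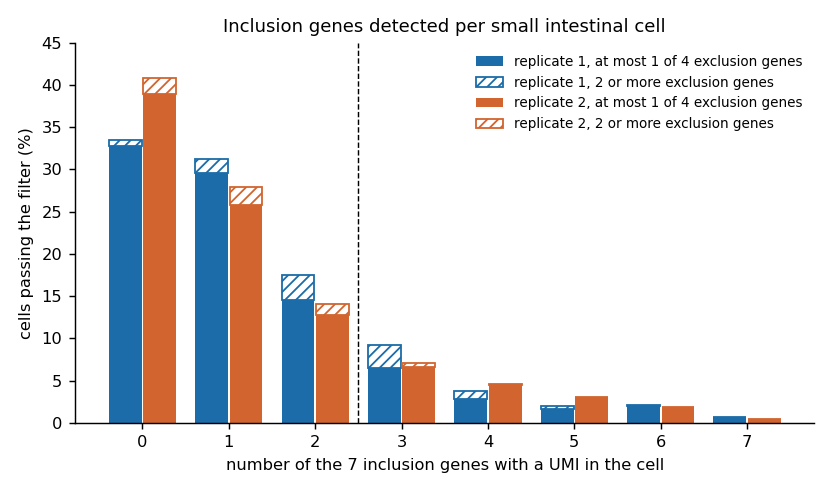
Small intestinal cells by the number of inclusion genes with a UMI (x axis), as a percent of cells passing the filter in each library (y axis). Filled bars are cells with at most 1 exclusion gene, hatched bars those with more, and the dashed line marks the threshold; cell numbers fall from 2 to 3 to 4 genes in both libraries, with no gap at the threshold.

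The largest class of Fgfr2-high cells stood at the threshold itself. Exactly 3 inclusion genes were seen in 119 of the 250 cells of replicate 1 (47.6%) and in 1015 of the 2513 cells of replicate 2 (40.4%). Just outside were 266 and 1941 cells with 2 inclusion genes. All 7 were seen in 12 cells (4.8%) and 71 cells (2.83%). From 2 to 3 to 4 inclusion genes the numbers of cells fell without a gap, so the threshold did not lie between separate groups of cells.

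*Igfbp3*, *Lpl* and *Fgfr2* carried most of the selection. *Igfbp3*, a binding protein of insulin-like growth factors, had a UMI in 88.0% and 80.9% of Fgfr2-high cells of replicates 1 and 2. *Lpl*, lipoprotein lipase, was seen in 80.8% and 79.8%, and *Fgfr2* itself in 87.2% and 66.9%. An *Fgfr2* UMI was thus found in 218 of the 250 cells of replicate 1 and 1682 of the 2513 of replicate 2, and the remainder were chosen without one. *Mmp10*, a stromelysin that cleaves matrix proteins, was seen in 42.8% and 61.4%, the chemokine *Cxcl14* in 50.4% and 49.6%, *Agt* (angiotensinogen) in 42.0% and 47.4%, and *Sertm1* in 16.8% and 22.8%. In the other *Col1a2* cells, *Fgfr2* had a UMI in 27.0% and 15.7% and *Mmp10* in 4.56% and 3.82%.

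The same shares were read in cells without a *Col1a2* UMI. These passed the filter and are not empty droplets, so free RNA itself was not measured. In the 487 such cells of replicate 1 (median 4611 UMIs) *Fgfr2* was seen in 0.821% and *Mmp10* in 0.411%, and in the 85 of replicate 2 (median 1405 UMIs) both were seen in 7.06%. *Igfbp3* had a UMI in 42.7% of these cells in replicate 1 and 12.9% in replicate 2. An *Igfbp3* UMI in replicate 1 is therefore also common in cells that lack *Col1a2*.

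As levels, summed UMIs were read as CPM, which puts every library and class of cells on 1 common sum. *Mmp10* stood at 720 and 659 CPM in Fgfr2-high cells and at 27.4 and 26.5 CPM in the other *Col1a2* cells. *Fgfr2* stood at 296 and 344 CPM against 56.1 and 66.8 CPM. *Sertm1* stood at 35.8 and 89.6 CPM against 1.17 and 3.82 CPM. These contrasts were made by the rule and are no findings. Of the exclusion genes, *Sox6* was at 0.484 and 9.85 CPM in Fgfr2-high cells and 55.6 and 63.6 CPM in the others, but *Foxl1* was at 4.84 and 14 CPM against 4.21 and 3.41 CPM.

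Genes that the rule did not use describe the cells as fibroblasts. The collagen gene *Col1a2* had a UMI in 247 of 250 and 2492 of 2513 Fgfr2-high cells. *Pdgfra*, the PDGF receptor α, stood at 219 and 209 CPM, beside 552 and 383 CPM in the other *Col1a2* cells. The rule left cells with at least 2 exclusion genes among the others, and a set of these, given below, stood at 2056 and 1776 CPM. The contrast in *Pdgfra* was thus made in part by the rule. *Cd34* stood at 430 and 228 CPM beside 572 and 530 CPM, so that it was lower in both libraries and by more than 2-fold in replicate 2 only. *Pdpn* (podoplanin) was at 260 and 239 CPM beside 250 and 201 CPM. *Igfbp5* did not separate the cells, being higher in one library (648 against 444 CPM) and lower in the other (536 against 664 CPM).

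Among markers of other cell types, those of epithelium, endothelium, glia and mesothelium were the lowest in Fgfr2-high cells. Of 6 epithelial markers the sum was 10.2 and 2.78 CPM in replicates 1 and 2, beside 0.702 and 2.88 CPM in the others. Of 4 endothelial markers it was 7.26 and 2.90 CPM beside 22.8 and 2.53 CPM, and of 4 glial markers 1.45 and 2.27 CPM beside 8.30 and 2.64 CPM. Of 3 mesothelial markers it was 0 CPM in both libraries. Defining markers at 0 in both libraries were *Msln*, *Upk3b* and *Lrrn4* of mesothelium, *Sox10*, *S100b* and *Gfap* of glia and *Kit* of interstitial cells of Cajal. The 5 immune markers summed to 31.0 and 16.2 CPM, the 3 markers of interstitial cells of Cajal to 32.9 and 51.6 CPM, nearly all of it *Etv1*, and the 4 plasma cell markers to 43.1 and 152 CPM, beside 317 and 484 CPM in the others. The 5 smooth muscle markers summed to 1374 and 564 CPM in Fgfr2-high cells and 2176 and 600 CPM in the others, most of it *Acta2*, and the 5 pericyte markers to 907 and 548 CPM against 965 and 797 CPM, most of it *Rgs5*. The pericyte channel genes *Kcnj8* and *Abcc9* were lower in Fgfr2-high cells, at 2.90 and 6.44 CPM against 129 and 36.8 CPM, and at 4.35 and 6.82 CPM against 63.5 and 30.7 CPM. Doublet scores in the top 5% of a library fell on 4.4% and 7.84% of Fgfr2-high cells and 6.56% and 4.46% of the others. Counts and single named genes were recomputed without those cells, as given in the closing part. The part of those cells in other values below was not tested.

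The question of what else marks these cells was read from 8346 genes with a mean of at least 10 CPM, leaving out the 11 rule genes. A log2 ratio of Fgfr2-high over other *Col1a2* cells was taken in each library after adding 10 CPM to both levels. Since the cells were chosen by UMIs of the same libraries, the ratios are a description with no test. At least 2-fold above the others in both libraries were 28 genes (0.335%), and at least 2-fold below were 52 (0.623%). The median ratio over all genes was 0.06. Ratios of the 2 libraries had a Pearson r of 0.70 across genes, which share their libraries and cells and are not independent replicates. In replicate 1 alone 173 genes and in replicate 2 alone 143 genes lay beyond 2-fold.

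**Figure D2:**
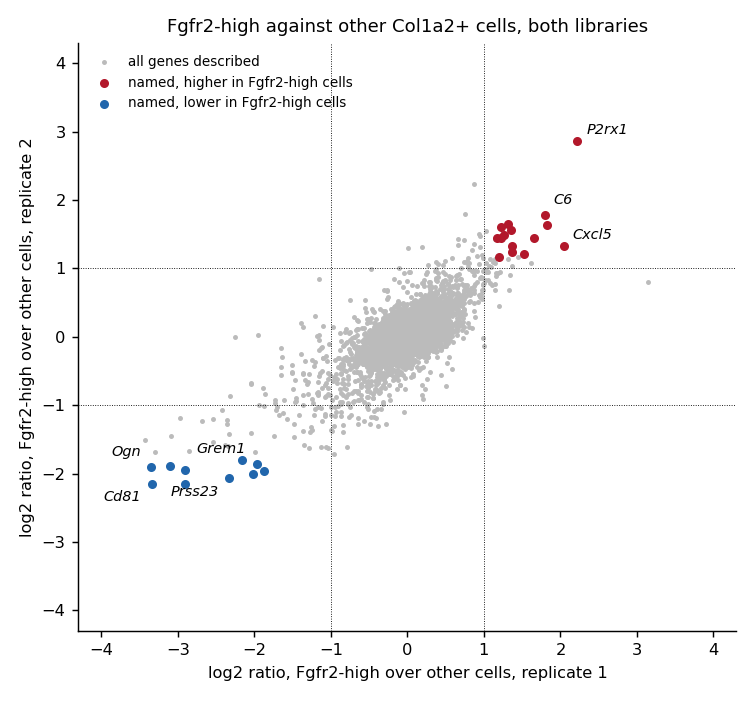
Log2 ratio of levels (CPM + 10) in Fgfr2-high over other *Col1a2* cells, replicate 1 on the x axis and replicate 2 on the y axis, one point per gene, with dotted lines at 2-fold. *P2rx1* stands farthest out at the upper right (2.22 and 2.86), and *Cd81* and *Ogn* among the named genes lie farthest left (−3.34 and −3.35 in replicate 1).

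Ranked by the smaller of its ratios in the 2 libraries, *P2rx1* stood first. It encodes a cation channel opened by extracellular ATP and lies on chromosome 11, 72999103 to 73015200 (GRCm38). Its level was 55.6 and 82.2 CPM in Fgfr2-high cells and 4.09 and 2.72 CPM in the others (log2 ratios 2.22 and 2.86). *C6*, a terminal complement component (chromosome 15, 4727175 to 4814967), was at 45 and 35.3 CPM against 5.85 and 3.24 CPM (1.79 and 1.78). Both genes were low in the other *Col1a2* cells taken as a whole.

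*Aldh1a3*, which makes retinoic acid from retinal (chromosome 7, 66390890 to 66427517), was at 554 and 526 CPM against 149 and 162 CPM. *Lrat*, which esterifies retinol for storage (chromosome 3, 82892579 to 82903973), was at 441 and 570 CPM against 187 and 248 CPM. Both are genes of vitamin A handling, and both were also well above 0 in the other *Col1a2* cells.

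*Itga8*, *Unc5b* and *Ntf3* stood in the same group of higher genes. *Itga8*, an integrin α chain (chromosome 2, 12106632 to 12301922), was at 32.4 and 21.2 CPM against 3.51 and 1.43 CPM. *Unc5b*, a receptor of netrins, was at 34.8 and 54.8 CPM against 7.60 and 11.9 CPM. *Ntf3*, which encodes neurotrophin 3 (chromosome 6, 126101412 to 126166910), was at 108 and 104 CPM against 35.6 and 35.3 CPM. The levels of *Ntf3* were nearly the same in both libraries.

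Matrix genes of this group were *Col18a1*, a basement membrane collagen (400 and 572 CPM against 149 and 237 CPM), *Col6a4* (52.2 and 61.0 CPM against 15.9 and 15.3 CPM) and *Lama1*, the laminin α1 chain (35.3 and 39.6 CPM against 5.73 and 11.5 CPM). *Cxcl5*, a chemokine for neutrophils (chromosome 5, 90759360 to 90761624), was at 134 and 135 CPM against 25.0 and 48.0 CPM. The transcriptional cofactor gene *Fhl2* was at 282 and 362 CPM against 115 and 112 CPM. *Prtn3*, *Dnmt3l* and *1810011O10Rik* complete the 15 named genes, with log2 ratios from 1.17 to 1.65.

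Markers of CD81+ FB were among the genes lower in Fgfr2-high cells. *Cd81*, a tetraspanin (chromosome 7, 143052739 to 143067934), was at 10.6 and 18.9 CPM against 199 and 119 CPM in the other *Col1a2* cells (log2 ratios −3.34 and −2.16). The atypical chemokine receptor *Ackr4* was at 5.32 and 11.5 CPM against 121 and 69.8 CPM, and *Grem1*, an antagonist of BMPs, at 93.9 and 123 CPM against 397 and 473 CPM. Of 6 markers of CD81+ FB, 5 were lower by at least 2-fold in both libraries (*Cd81*, *Ackr4*, *Grem1*, *Pi16* and *C3*) and the sixth, *Rspo3*, was lower by more than 2-fold in replicate 2 only. The median log2 ratio of the 6 was −1.98. *Cd34*, another marker of CD81+ FB, was not among the 6 and was lower by more than 2-fold in replicate 2 only.

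The other named genes were mostly extracellular. *Ogn*, a small proteoglycan, was at 41.6 and 58.1 CPM against 515 and 245 CPM. *Prss23* was at 148 and 121 CPM against 782 and 538 CPM. *Pcolce2*, an enhancer of procollagen processing, was at 16.4 and 31.1 CPM against 189 and 172 CPM. *Col8a1*, *Cilp*, *Igfbp6* and *Piezo2*, the last a mechanically gated channel, had log2 ratios from −2.91 to −1.80.

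To see whether these levels depended on how many inclusion genes a cell showed, cells with at most 1 exclusion gene were summed by that number, again as a description. Cells outside the Fgfr2-high class entered these sums only with a *Col1a2* UMI. In replicate 2, *P2rx1* went from 0.723 CPM with no inclusion gene to 7.16 CPM with 2, 27.5 CPM with 3 and 138 CPM with 5, and in replicate 1 from 2.45 CPM to 1.53, 5.97 and 50.9 CPM. *C6* reached 125 and 68.3 CPM in cells with 6 inclusion genes, beside 10.9 and 17.0 CPM in those with 3. *Aldh1a3* reached 996 and 699 CPM beside 370 and 396 CPM. *P2rx1* and *C6* were thus low in the cells at the threshold and high in the cells with most inclusion genes. *Aldh1a3* was already higher at 1 inclusion gene (135 and 189 CPM) than at none (56.3 and 108 CPM). So was *P2rx1*, at 8.66 and 2.03 CPM against 2.45 and 0.723 CPM in replicates 1 and 2. The steps rest on 119, 52, 31, 36 and 12 cells with 3 to 7 inclusion genes in replicate 1 and on 1015, 684, 461, 282 and 71 in replicate 2, and the 12 cells with all 7 in replicate 1 give uncertain levels.

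The genes of CD81+ FB went the other way. *Grem1* was at 827 and 684 CPM with no inclusion gene, 116 and 162 CPM with 3 and 20.2 and 101 CPM with 6. *Cd81* was at 444 and 197 CPM with none and already at 37.8 and 29.5 CPM with 2, just outside the threshold. *Cd34* was at 684 and 603 CPM with none, 579 and 314 CPM with 3 and 151 and 117 CPM with 6. In replicate 1, low *Cd34* was therefore found in the cells with 5 or more inclusion genes. Cells at the threshold had nearly the level of those with no inclusion gene there. In replicate 2, *Cd34* was already lower at the threshold and was at 235 CPM with 4 inclusion genes. *Igfbp5* was highest in between, at 866 CPM with 3 inclusion genes in replicate 1 and at 828 CPM with 2 in replicate 2. *Pdgfra* was at 199 to 254 CPM from 0 to 6 inclusion genes in replicate 1 and at 107 CPM in the 12 cells with 7. In replicate 2 it was at 301 CPM with 2, 175 CPM with 5 and 162 CPM with 7. Median depth of the cells in these sums was 7107.5 UMIs with no inclusion gene, 8853 UMIs with 3 and 7867.5 UMIs with 6 in replicate 1, and 2802, 2814 and 3086.5 UMIs in replicate 2.

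**Figure D3:**
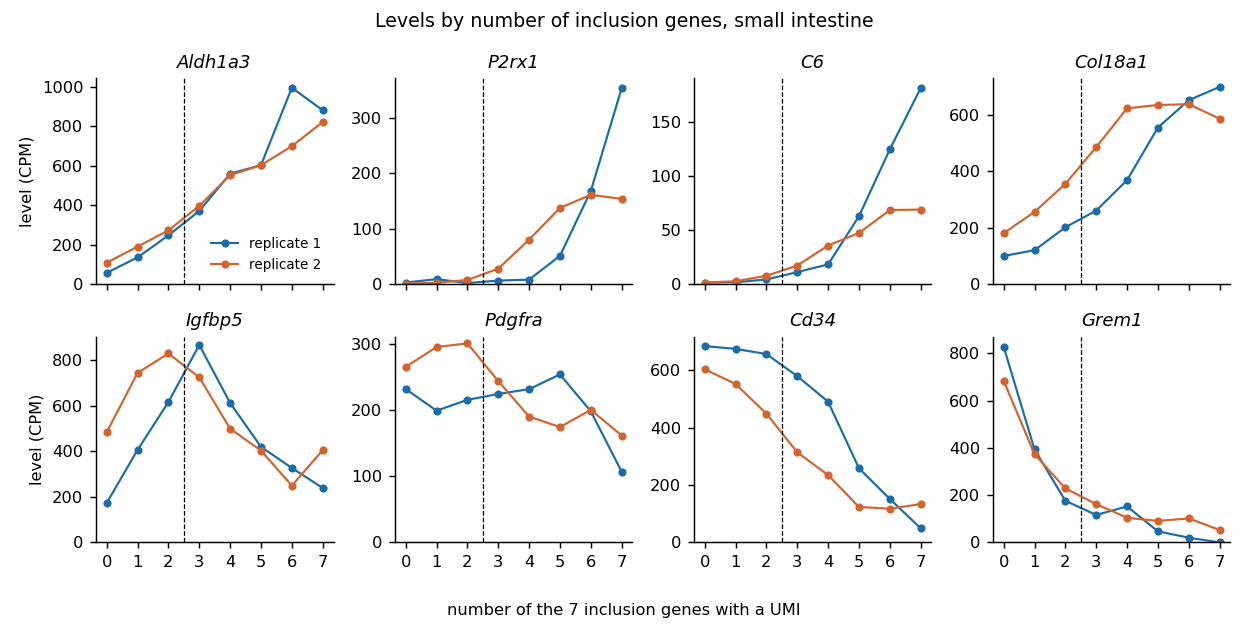
Level in CPM of 8 genes (y axes, each from 0) in small intestinal cells with at most 1 exclusion gene (Fgfr2-high cells and other *Col1a2* cells), by number of inclusion genes with a UMI (x axes), with replicate 1 in blue, replicate 2 in orange and the threshold dashed. *Aldh1a3*, *P2rx1*, *C6* and *Col18a1* are higher where more inclusion genes were seen, *Cd34* and *Grem1* are lower, and *Igfbp5* peaks at 2 or 3.

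Fgfr2-high cells were also split by whether they showed a given inclusion gene. Cells with an *Mmp10* UMI (107 and 1544) were set beside those without (143 and 969) over 5324 genes with enough UMIs, as a description. They were also higher in every other inclusion gene in both libraries, as in *Cxcl14* (752 and 467 CPM against 92.7 and 182 CPM). The same held for the split by *Cxcl14* below. In these splits, which inclusion gene was seen cannot be told apart from how many were seen. *P2rx1* was at 138 and 117 CPM with *Mmp10* and at 3.93 and 30.4 CPM without. *Itga8* was at 79.3 and 31.1 CPM against 3.14 and 6.33 CPM. These 2 genes were at least 2-fold higher in both libraries, and *Mgp*, an inhibitor of calcification, was the 1 gene at least 2-fold lower, at 2148 and 3194 CPM against 5341 and 6482 CPM. The ligand gene *Wnt4* followed in the same direction (161 and 333 CPM against 10.2 and 163 CPM), as did the cytokine receptor gene *Lifr* (148 and 142 CPM against 44.0 and 66.5 CPM), and *Cd34* went in the opposite direction (219 and 173 CPM against 562 and 310 CPM).

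Splitting by *Cxcl14* set apart a like group of genes. *Itga8*, *P2rx1*, *Wnt4* and *C6* were at least 2-fold higher in both libraries in the 126 and 1246 cells with a *Cxcl14* UMI, and no gene was 2-fold lower. *Wnt4* was at 128 and 381 CPM with *Cxcl14* and 7.80 and 150 CPM without. *Mmp3*, another stromelysin, went against *Cxcl14* (11.5 and 18.2 CPM with, 145 and 46.0 CPM without).

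*Agt* marked a partly overlapping group of genes. *Emid1*, *Wnt4* and *Myh11* were at least 2-fold higher with an *Agt* UMI (105 and 1191 cells). Of these, *Wnt4* was named above for *Cxcl14*, and *Emid1* was also higher with *Cxcl14* (log2 ratios 1.91 and 0.79). The smooth muscle myosin gene *Myh11* was at 215 and 59.6 CPM with *Agt* and 7.54 and 23.0 CPM without, and *Acta2* at 2094 and 585 CPM against 251 and 326 CPM. The smooth muscle genes of Fgfr2-high cells thus lay mostly in cells with *Agt* in replicate 1. They also lay in the 30 cells of replicate 1 without *Igfbp3*, where *Acta2* was at 3680 CPM against 618 CPM. *Lpl* set apart *Mmp3* alone (87.4 and 36.8 CPM with, 22.9 and 11.7 CPM without). The splits by *Fgfr2*, *Igfbp3* and *Sertm1* left 0 genes beyond 2-fold in both libraries, though *Sertm1* and *Igfbp3* each left a small group of 42 or 30 cells in replicate 1.

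The cells were next set beside 3 sets of other small intestinal *Col1a2* cells, each named by its selecting genes: at least 2 of *Sox6*, *F3*, *Foxl1* and *Bmp7* (167 and 832 cells), at least 2 of *Grem1*, *Ackr4*, *Rspo3* and *Pi16* (227 and 2117 cells), and at least 1 of *Dkk2* and *Shisa2* (175 and 2095 cells). *Pdgfra* stood at 2056 and 1776 CPM in the *Sox6* set and at 216 to 236 CPM in the other sets, near the 219 and 209 CPM of Fgfr2-high cells. *Cxcl14* did not separate Fgfr2-high cells from the *Sox6* set, which had 353 and 211 CPM beside 346 and 353 CPM. *Fhl2* was likewise shared, at 349 and 304 CPM in the *Sox6* set and 282 and 362 CPM in Fgfr2-high cells, and so was *Wnt4*, at 151 and 301 CPM beside 68.2 and 265 CPM. Outside these sets *Fhl2* was at 23.7 to 84.8 CPM and *Wnt4* at 0 to 16.4 CPM.

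*P2rx1* and *Itga8* were low in all 3 sets. *P2rx1* reached at most 8.92 CPM in any of them and *Itga8* at most 1.78 CPM. *Lama1* stood at 35.3 and 39.6 CPM in Fgfr2-high cells and at 3.61 to 13.9 CPM in the 3 sets. *C6* was less confined, at 22.7 and 9.81 CPM in the *Sox6* set and 3.08 and 1.77 CPM in the *Dkk2* set. In the *Dkk2* set *Aldh1a3* was at 209 and 186 CPM, *Ntf3* at 47.0 and 41.1 CPM and *Igfbp5* at 654 and 722 CPM. *Adamdec1*, a disintegrin-like metalloproteinase, was at 9185 and 7885 CPM in Fgfr2-high cells, 6661 and 4653 CPM in the *Dkk2* set and 1295 to 3014 CPM in the others. *Fgf10*, a ligand of FGFR2, stood at 34.8 and 31.4 CPM in Fgfr2-high cells, 18.5 and 15.1 CPM in the *Dkk2* set and 0.649 to 5.42 CPM in the others. Low *Ogn* and *Cd81* were not particular to Fgfr2-high cells. *Ogn* was at 42.3 and 85.3 CPM in the *Dkk2* set, beside 1681 and 980 CPM in the *Sox6* set and 410 and 316 CPM in the *Grem1* set. *Cd81* was at 15.6 and 8.03 CPM in the *Sox6* set and 16.9 and 57.3 CPM in the *Dkk2* set, beside 424 and 301 CPM in the *Grem1* set.

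**Figure D4:**
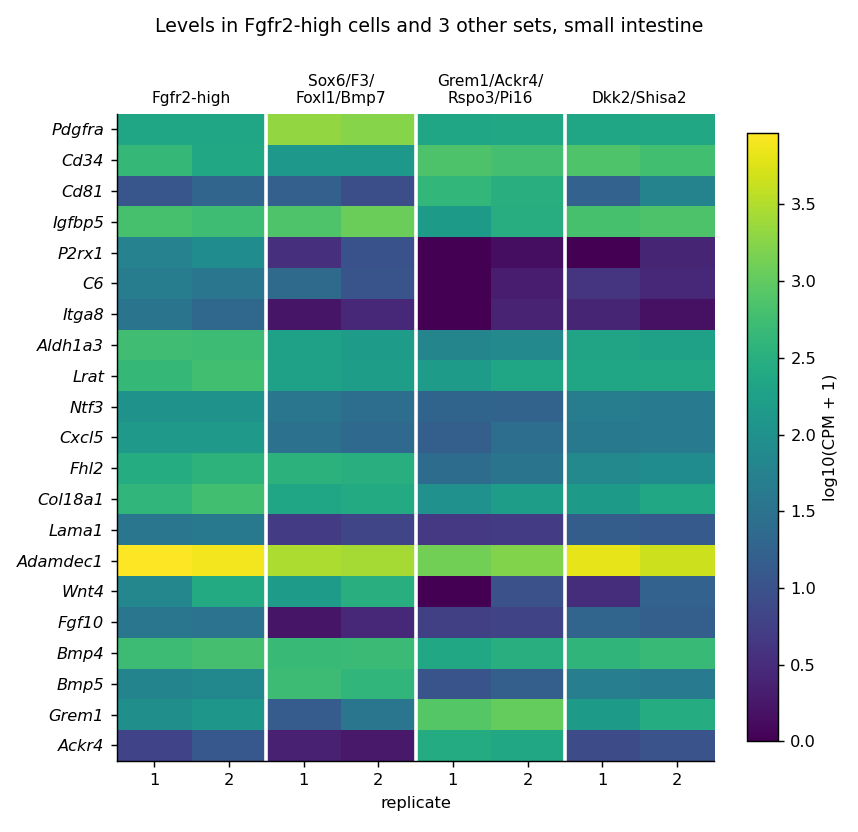
Levels of 21 genes (rows) as log10(CPM + 1) in Fgfr2-high cells and 3 other sets of small intestinal cells (columns, replicates 1 and 2 of each). *P2rx1* and *Itga8* are bright in Fgfr2-high cells alone among the columns shown, *Pdgfra* and *Bmp5* are brightest in the *Sox6*/*F3*/*Foxl1*/*Bmp7* set, and *Cd81*, *Grem1* and *Ackr4* in the *Grem1*/*Ackr4*/*Rspo3*/*Pi16* set.

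Gene lists were then read for their counts beyond 2-fold in both libraries, against 0.335% higher and 0.623% lower over all genes. In FGF signalling, 0 of 10 genes lay beyond 2-fold. The receptor *Fgfr1* was at 140 and 175 CPM against 145 and 193 CPM, and the feedback inhibitor *Spry1* at 104 and 136 CPM against 84.3 and 73.4 CPM. *Fgf10* missed the limit in replicate 2 (log2 ratios 1.19 and 0.93) and *Fgf7*, a second ligand of FGFR2, was lower, at 13.1 and 5.55 CPM against 32.4 and 20.1 CPM (−0.88 and −0.95).

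Of 11 BMP and WNT ligands 0 lay beyond 2-fold. *Bmp4* was at 511 and 619 CPM against 334 and 439 CPM. *Wnt4* was at 68.2 and 265 CPM against 32.9 and 48.5 CPM, with log2 ratios of 0.87 and 2.23. Of 8 antagonists, *Grem1* was lower and *Frzb*, a secreted WNT inhibitor, was higher (85.6 and 65.6 CPM against 21.2 and 25.7 CPM). The abundant *Sfrp1* hardly differed (2544 and 2580 CPM against 1984 and 2802 CPM). Of 7 growth factors for epithelium, *Nrg1* (neuregulin 1, a ligand of ERBB receptors) was higher, at 17.4 and 30.8 CPM against 3.51 and 3.93 CPM. *Ereg*, the EGF receptor ligand epiregulin, was at 243 and 459 CPM against 178 and 348 CPM.

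In retinoid metabolism, 2 of 12 genes were higher (*Lrat*, *Aldh1a3*) and 2 lower. *Rbp4*, a carrier of retinol, was at 2.90 and 15.4 CPM against 91.2 and 47.6 CPM, and *Adh1*, an alcohol dehydrogenase, at 60.5 and 15.3 CPM against 143 and 49.1 CPM. The list thus moved in both directions, with a median of −0.15. Of 15 chemokine genes, *Cxcl5* was higher and *Ccl7* and *Ackr4* lower, *Ccl7* at 9.68 and 23.4 CPM against 184 and 97.3 CPM. *Ccl11*, which attracts eosinophils, was at 1789 and 1662 CPM against 1125 and 649 CPM, beyond 2-fold in replicate 2 only. *Cxcl9*, an interferon-induced chemokine, was far apart in replicate 1 (323 against 27.8 CPM) and less so in replicate 2 (145 against 78.6 CPM).

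Basement membrane genes counted 3 higher of 16 (*Lama1*, *Hmcn1* and *Col18a1*) and 1 lower (*Col4a5*). *Hmcn1* (hemicentin 1) was at 396 and 290 CPM against 139 and 124 CPM, and *Col4a5* at 0 and 7.57 CPM against 40.5 and 36.9 CPM. The main chain *Col4a1* was at 721 and 1011 CPM against 548 and 764 CPM. Of 20 genes of fibrillar and other matrix, *Col6a5* was higher (165 and 336 CPM against 60.8 and 147 CPM) and *Ogn* and *Mfap5* lower. *Dcn* (decorin) was at 10826 and 9859 CPM against 16474 and 18579 CPM, within 2-fold in both libraries. Among 13 metalloproteinases and inhibitors, *Adamdec1* was the 1 gene beyond 2-fold.

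In 12 complement genes, *C6* was higher and *C3* lower, the latter at 979 and 614 CPM against 2062 and 1894 CPM. Of 9 genes of vasoactive signalling *P2rx1* was higher and *Ednrb*, an endothelin receptor, lower (16.4 and 32.2 CPM against 132 and 79.1 CPM). The thrombospondin gene *Thbs2* was the 1 of 11 angiogenic genes beyond 2-fold, at 73.1 and 95.9 CPM against 27.5 and 29.1 CPM. In the IGF axis, *Igfbp6* was the 1 of 7, at 43.1 and 32.6 CPM against 184 and 155 CPM. None of 13 lipid handling, 16 cytokine, 15 interferon response and 19 transcription factor genes lay beyond 2-fold. The transcription factor gene *Nkx2-3* was at 377 and 696 CPM against 202 and 354 CPM, and *Tcf21* at 1588 and 466 CPM against 792 and 286 CPM.

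In a few lists nearly all genes lay on the same side within 2-fold. Over all 8346 genes, 5693 had ratios of the same sign in both libraries, counting both directions. All 16 immediate early genes were lower in both libraries, with a median of −0.38 against 0.06 over all genes and 0 beyond 2-fold. *Fos* was at 3423 and 5452 CPM against 4637 and 6833 CPM. Of 14 genes of antigen presentation 13 were higher in both, with a median of 0.32, *H2-K1* at 2876 and 2319 CPM against 2520 and 2149 CPM. Of 14 Hox genes 12 were higher in both, with a median of 0.32, *Hoxa5* at 59.0 and 82.3 CPM against 30.6 and 46.0 CPM. Of 4 plasma cell markers 3 passed the level filter, and all 3 were lower: *Igkc* was at 15 and 100 CPM against 89.6 and 343 CPM, and *Jchain* and *Igha* went the same way. Whether free RNA had a part in these immunoglobulin levels was not tested.

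The same rule was applied to the colon to compare the intestines, a difference that the rule did not use. It took 472 and 1653 colonic cells, but not by the same genes. *Mmp10* had a UMI in 3.39% and 5.63% of them and *Sertm1* in 0.424% and 0.242%, while *Igfbp3* had one in 95.6% and 92.7%. As a class, the chosen colonic cells had 13.9 and 27.2 CPM of *Mmp10*. The chosen colonic cells therefore rest on *Igfbp3*, *Lpl*, *Fgfr2*, *Agt* and *Cxcl14*. Exclusion genes differed too. *Bmp7* had a UMI in 19.1% and 15.4% of them, against 2.8% and 2.75% of Fgfr2-high cells of small intestine. *F3* had one in 29.4% and 20.0% against 26.0% and 6.45%, and *Sox6* and *Foxl1* in at most 4.1% in any library. Whether another mix of cells had a part in the differences below was not tested.

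In the edgeR quasi-likelihood test of summed counts, 0 of 12028 genes (0%) passed an adjusted p of 0.05 with a log2 difference beyond 1.5. The smallest adjusted p was 0.0531, and 1124 genes had an unadjusted p under 0.05. DESeq2 called 305 genes. File headers give Cell Ranger 3.0.2 for replicate 1 and 3.1.0 for replicate 2 of both intestines, and with this version as a term edgeR called 602 genes, 352 with the higher level in colon (2.93%) and 250 with the higher level in small intestine (2.08%). Of the 305 genes of DESeq2, 294 were among these, all with the same sign. The version cannot be told apart from the replicate number, and within each version there is 1 library per intestine. The genes below are those called with this term, so their calls rest on it, and each is given with its value in all 4 libraries.

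Of 14 genes of vitamin A handling 6 were called higher in small intestine and 2 (*Adh7* and *Rarg*) in colon. *Lrat* was at 441 and 570 CPM in small intestine beside 0.663 and 0.128 CPM in colon, where 4 UMIs were counted in all (edgeR with the version term, log2 difference of colon over small intestine −10.45 ± 0.33 (SE derived from F), adjusted p = 1.03e-07). In all fits the value after ± is the absolute difference divided by the square root of the test's F. It is no counting error, and with 4 UMIs it does not give the precision of the difference. *Aldh1a3* was at 554 and 526 CPM against 159 and 101 CPM (−2.03 ± 0.16). *Aldh1a2*, another retinal dehydrogenase gene, was at 191 and 148 CPM against 42.7 and 26.0 CPM. *Cyp1b1*, a cytochrome P450 gene of this list, was at 76.0 and 29.3 CPM against 0 UMIs in both colonic libraries, at least 160-fold higher against a floor of 3 counts over the group. In these 4 genes the libraries of the intestines did not overlap. The share of all genes without overlap was not counted, so no weight is put on this.

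Of 12 complement genes 7 were called, all higher in small intestine, with a median log2 difference of −1.70. *C6* was at 45 and 35.3 CPM against 0.442 and 1.41 CPM. Its neighbour on chromosome 15, *C7* (4988762 to 5063740), was at 82.2 and 25.8 CPM against 1.55 and 0.769 CPM. *C3* was at 979 and 614 CPM against 162 and 73.3 CPM. *C6* was thus higher both in Fgfr2-high cells and in the small intestine, whereas *C3* and *C7* were lower in Fgfr2-high than in other small intestinal *Col1a2* cells in both libraries.

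Of 15 antigen presentation genes 5 were called higher in small intestine, among them *B2m* (2476 and 1926 CPM against 589 and 631 CPM) and *H2-K1* (2876 and 2319 CPM against 594 and 598 CPM). Reads of *H2-Q6* and *H2-Q7*, which are close copies, can be shared, and their levels are uncertain. Of 18 basement membrane genes, *Lama1*, *Nid2*, *Hmcn1* and *Hmcn2* were higher in small intestine and *Col4a5* and *Col4a6* in colon. *Hmcn1* was at 396 and 290 CPM against 6.41 and 9.36 CPM. *P2rx1* was at 55.6 and 82.2 CPM against 0.885 and 4.74 CPM, and *Cxcl5* at 134 and 135 CPM against 6.85 and 11.2 CPM.

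Certain signalling and matrix genes were higher in colonic cells. *Postn* (periostin) was at 4459 and 2001 CPM in colon and 170 and 102 CPM in small intestine (edgeR with the version term, 4.56 ± 0.20, adjusted p = 1.03e-07). *Ogn*, low in Fgfr2-high cells of the small intestine, was at 568 and 638 CPM in colon. Of 14 genes of the FGF list *Fgf7* (62.4 and 45.6 CPM against 13.1 and 5.55 CPM) and *Fgf9* were higher in colon and 0 in small intestine. Of 15 BMP and WNT ligands *Wnt2*, *Wnt5b* and *Rspo1* were higher in colon and *Rspo2* in small intestine. Among antagonists, *Sfrp2*, *Sfrp4*, *Fst* and *Nog* were higher in colon and *Dkk2* in small intestine. *Sfrp2* had 0 UMIs in small intestine and 34.1 and 20.1 CPM in colon, at least 84.0-fold higher. *Nrg1* was higher in colon, at 35.2 and 116 CPM, and *Btc* and *Il33* in small intestine.

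Hox genes, which mark position along the gut, differed in both directions. Of 26 Hox genes tested, 8 were called higher in colon and 14 in small intestine, the former of paralogue groups 9 to 13 and the latter of groups 2 to 8. *Hoxa10* (chromosome 6, 52231197 to 52240854) had 0 UMIs in small intestine and 75.6 and 57.8 CPM in colon, at least 214-fold higher. *Hoxc5* was at 25.6 and 12.2 CPM against 0.221 and 0.128 CPM, 92.5-fold (95% counting interval 25.2 to 771). *Isl1*, a homeobox gene outside these clusters, had 0 UMIs in small intestine and 41.4 and 44.4 CPM in colon, at least 144-fold higher. *Stmn2*, a tubulin-binding stathmin, was at 172 and 149 CPM in colon against 1.45 and 0.126 CPM in small intestine, from 3 and 1 UMIs. Over both libraries together, the other genes with the largest differences were *Hoxa11* (at least 121-fold), *Hoxd11* (at least 94.0-fold), *Hoxa9* (at least 72.7-fold) and *Syndig1* (at least 50.5-fold) in colon, and *Vwc2* (at least 88.4-fold), *Hoxc4* (59.0-fold) and *Hoxc8* (57.4-fold) in small intestine. With 1 to 3 UMIs in the lower intestine were *Nxf7* (ratio 343, 95% counting interval 61.2 to 13575) and *Cd109* (275, 49.0 to 10885), higher in colon, and *Sntg1* (126, 42.8 to 616), higher in small intestine.

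**Figure D5:**
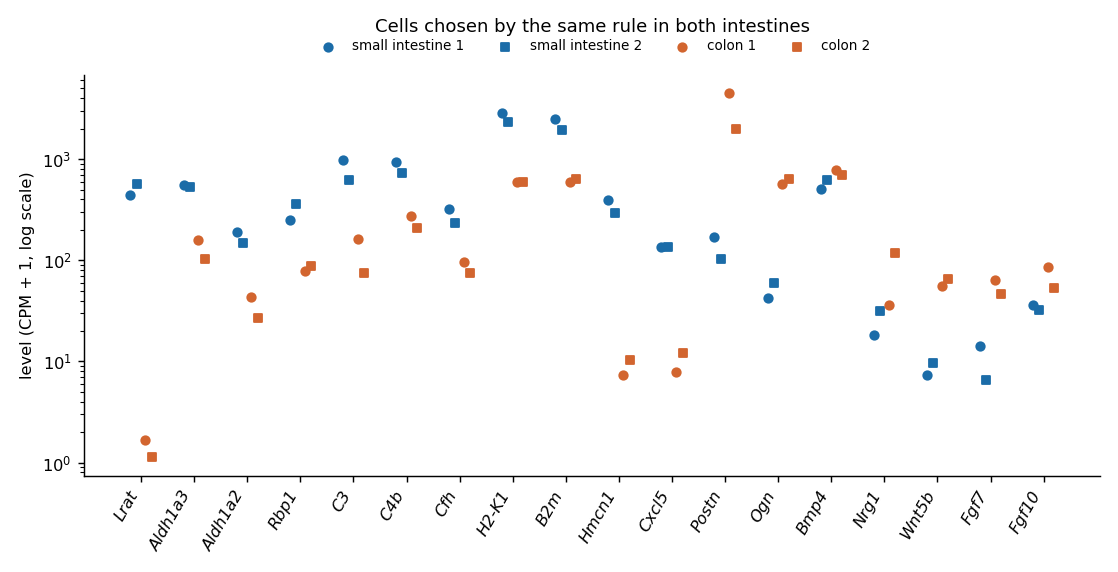
Level of 18 genes as CPM + 1 on a log axis (y axis) in cells chosen by the same rule, with small intestine in blue, colon in orange, replicate 1 as circles and replicate 2 as squares. Both small intestinal points lie above both colonic points for *Lrat* to *Cxcl5* on the left, and below them for *Postn*, *Ogn*, *Nrg1*, *Wnt5b*, *Fgf7* and *Fgf10*.

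Whether the intestines differed otherwise in Fgfr2-high than in other *Col1a2* cells was tested as the interaction of cell class and intestine, with each library as its own block. By edgeR, 41 of 13029 genes (0.315%) passed, 27 with a more colonic shift in Fgfr2-high cells and 14 with a more small intestinal one. *Lrat* was among them (−2.58), so that its difference between the intestines was larger in Fgfr2-high cells. *Hoxb3* (−3.37) and *Hoxb2* (−1.74) were the 2 Hox genes. *Hoxb3* was at 16 and 33.5 CPM in Fgfr2-high and 9.94 and 18.0 CPM in other cells of small intestine, and at 0.221 and 0.385 CPM against 1.45 and 2.56 CPM in colon. *Rspo1*, which enhances WNT signals, had the largest positive term (log2 4.09 ± 0.32 (SE derived from F), adjusted p = 0.00632 by edgeR's quasi-likelihood test). It was lower in Fgfr2-high cells of small intestine (2.42 and 1.64 CPM against 10.8 and 7.14 CPM) and higher in those of colon (15 and 11.9 CPM against 4.60 and 3.23 CPM).

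*Unc5c*, a netrin receptor gene like *Unc5b*, had a negative term (−2.82 ± 0.34). It was at 8.71 and 17.8 CPM against 1.40 and 4.29 CPM in small intestine. Its colonic levels were 2.87 and 4.10 CPM against 5.23 and 7.07 CPM. *Apoe*, a lipid carrier, had a positive term (1.98), and *Btc* (betacellulin) a negative one (−1.97). The count rests on both small intestinal libraries, since 1 gene passed without replicate 1 and 0 without replicate 2. With a term for the replicate number by class 176 genes passed, the 41 among them.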

How the data were processed

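Droplet libraries of sorted intestinal cells were deposited as UMI counts per gene and barcode, which the authors made with Cell Ranger (3.0.2 and Seurat 3 per the labels; 3.0.2 for replicate 1 and 3.1.0 for replicate 2 per the file headers). Reads were aligned to mm10, and positions are those of GENCODE vM21 on the same build (GRCm38), which matched 28339 of 28692 gene identifiers.

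Cells, members and the 36 gene lists were chosen with earlier results of these data known. From the 34983 barcodes, cells were filtered and chosen by the rule given above, and counts were summed per library and class. Levels are CPM of those sums. Ratios of the classes used 10 added CPM and carry no test. Classes of the intestines were compared with edgeR 4.0.16 (quasi-likelihood test, TMM, R 4.3.3) on 2 libraries per intestine, and the interaction was fitted with library as a block. Calls needed a log2 difference beyond 1.5 with a Benjamini-Hochberg adjusted p under 0.05, and left out the 11 rule genes. DESeq2 1.42.0, other thresholds of the rule, cells thinned to 2000 UMIs, removal of the 5% of cells with the highest doublet score (scanpy 1.11.5), other pseudocounts, no filter on low values and leaving out each library were alternatives. Doublets were kept otherwise. The models were tested on simulated counts.

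Named were the 15 highest and 10 lowest genes by the ratio nearest to 0 of both libraries (mean of at least 10 CPM, 50 UMIs per library), the 10 largest called differences between the intestines in each direction, the 5 largest interaction terms in each direction and, of each list, abundant genes and those beyond 2-fold or called. The tissue rule was applied to the fit with the Cell Ranger version after the fit without it had called 0 genes. Genes named in the splits, the levels by number of inclusion genes and the cell sets, and any other gene outside these rules, were chosen after their values were seen. P-values measure the spread between these libraries only. A withheld item is not reported here.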

Additional observations from a re-analysis of the deposited data

Results flagged for a closer look

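The test of the difference itself, the interaction of cell class and intestine, set apart 41 genes by edgeR. Terms are log2, and above 0 the shift of Fgfr2-high from other *Col1a2* cells was more towards higher levels in colon than in small intestine. The 5 largest positive terms were those of *Rspo1* (4.09), *Gm973* (3.48), *Thrb*, a thyroid hormone receptor gene (3.07), *9330159F19Rik* (2.73) and *Ptgfr*, the prostaglandin F receptor gene (2.49). The 5 largest negative terms were those of *Sh3gl3* (−5.10), the acute phase gene *Saa1* (−4.89), *Hoxb3* (−3.37), *Unc5c* (−2.82) and *Tex14* (−2.67).

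Most of these genes were sparse. *Thrb* was at 0.968 and 1.26 CPM in Fgfr2-high and 5.26 and 8.65 CPM in other cells of small intestine. In colon it was at 4.86 and 5.26 CPM beside 2.96 and 5.71 CPM. *Ptgfr* was at 6.77 and 2.52 CPM beside 12.5 and 10.4 CPM in small intestine. Its colonic levels were 7.74 and 5.64 CPM beside 4.85 and 3.28 CPM. *Sh3gl3* was at 2.42 and 3.41 CPM beside 0.234 and 0.412 CPM in small intestine. Its colonic levels were 0.442 and 0.641 CPM beside 2.33 and 2.75 CPM. *Tex14* was at 15 and 7.95 CPM beside 3.39 and 2.36 CPM in small intestine, with colonic levels of 8.40 and 8.97 CPM beside 22.5 and 13.4 CPM. For *Ptgfr*, *Sh3gl3* and *Tex14*, the classes stood in opposite order in the 2 intestines, in every library.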

How the results depend on the processing

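The share of Fgfr2-high cells (17.6%) moved with the rule: 33.5% with at least 2 inclusion genes, 9.81% with at least 4, 10.8% in thinned cells and 13.3% with no exclusion gene. The 80 genes beyond 2-fold became 45 with at least 2 inclusion genes, 150 with at least 4, 157 in thinned cells, 171 with 1 CPM added and 19 with 50 CPM added. Read from 1 library they were 143 without small intestine replicate 1 and 173 without replicate 2.

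The tissue comparison (0 genes) gave 305 by DESeq2, 63 with at least 4 inclusion genes, 135 in thinned cells, 21 without high doublet scores, 273 without a filter on low counts and 38 with no exclusion gene. Leaving out 1 library gave 0 to 109, namely 109 without colon replicate 1, 67 without colon replicate 2, 65 without small intestine replicate 1 and 0 without small intestine replicate 2. With the replicate number as a replicate block, which equals the Cell Ranger version, it gave 602. Deviations of same-numbered libraries correlated at 0.716 over 12039 genes, and with 2 pairs this does not establish that the numbers pair the samples. The interaction (41 genes) gave 73 by DESeq2, 0 with at least 2 inclusion genes, 98 with at least 4, 166 in thinned cells, 107 without a filter on low counts and 176 with the replicate block (87 positive, 89 negative). Leaving out 1 library gave 0 to 237, namely 0 without small intestine replicate 2, 1 without replicate 1, 86 without colon replicate 1 and 237 without colon replicate 2, where the lone library is assumed to vary like the other groups. The cause of these moves was not tested. The other alternatives kept the share within 1 SD and the counts within 1.5 times, the widest being 98 genes beyond 2-fold without high doublet scores. No alternative turned the direction of the 25 genes of the member description, the 20 of the tissue comparison and the 10 of the interaction that were recomputed singly. Of values for single genes, 102 of the member ratios moved by more than the spread between libraries, 167 of the tissue differences became called and 38 of the interaction terms were no longer called. With 2 libraries per intestine, depth per cell and the number of libraries limit what the counts can show.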

Other observations

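Genes of the cell cycle were seen in Fgfr2-high cells of replicate 2 in the main. *Mki67* was at 0.484 and 12.0 CPM in replicates 1 and 2, beside 1.99 and 3.19 CPM in the other *Col1a2* cells, and *Top2a* at 0.968 and 10.2 CPM beside 0.936 and 2.01 CPM. The levels in replicate 1 rest on 1 and 2 UMIs.

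Class II antigen presentation genes, which professional antigen presenting cells use, differed by library. *Cd74* was at 160 and 15.8 CPM in Fgfr2-high cells of small intestine, beside 95.6 and 12.1 CPM in the other *Col1a2* cells. *H2-Aa* was at 54.2 and 7.70 CPM beside 27.0 and 5.47 CPM. Within Fgfr2-high cells *Cd74* was lower in cells with an *Agt* UMI, at 75.5 and 7.39 CPM, than in cells without, at 222 and 24 CPM. The immune markers *Ptprc* and *Cd79a* stood at 2.90 and 1.14 CPM and at 2.42 and 0.505 CPM in Fgfr2-high cells, and their part in the *Cd74* levels was not tested.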
